A study of Mus musculus with 2 samples.

Results

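The genes described here are 10 nucleases and enzymes that keep a cell from answering its own nucleic acids: Samhd1, Trex1, Rnaseh2a, Rnaseh2b, Rnaseh2c, Adar, Dnase2a, Pld3, Pld4 and Enpp1. They were chosen by symbol from the 31053 genes of the count tables, and all 10 are listed there. Of these, 9 had unique molecular identifiers (UMIs, counts of distinct captured transcripts) in kept cells of each sample, and Trex1 had none. The data are single-cell RNA sequencing of mouse brain in 2 pooled samples, 1 per group. The sorted sample pooled FACS-sorted brain cells of male mice aged 3 and 12 months, and its sorting gate is not named in the labels. The total sample pooled cells of total brain from male and female mice aged 2 and 24 months, where the title gives 24 and the age label 240. Both samples mix wild type (WT) mice with STING-KO mice, which lack the adaptor that relays the detection of cytosolic DNA, and the labels count 2 mice grouped for each genotype and age. Each count table holds barcodes with suffixes 1 to 4, but the labels do not say which animals a suffix holds, so suffixes serve only as a spread and not as groups. No level given here can therefore be assigned to 1 genotype or 1 age.

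DNA outside the nucleus or the mitochondria binds the sensor cGAS, which makes the cyclic dinucleotide cGAMP, and cGAMP switches on STING and type I interferon. Most of the enzymes described here limit the DNA that reaches cGAS or the cGAMP that it makes, while ADAR acts in the separate sensing of RNA. SAMHD1 breaks down deoxynucleotides, TREX1 degrades DNA in the cytosol, and the RNase H2 complex (subunits A, B and C) removes ribonucleotides and RNA from DNA. DNASE2A and the exonucleases PLD3 and PLD4 degrade nucleic acids in lysosomes, ADAR edits double-stranded RNA so that MDA5 does not read it as foreign, and ENPP1 hydrolyses cGAMP outside the cell. Loss of several of them in humans causes Aicardi-Goutières syndrome, an interferon-driven disease of the brain.

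Cells needed 500 genes or more and no more than 10% mitochondrial UMIs, and 10076 of 13499 barcodes of the sorted sample and 9367 of 14674 of the total sample were kept. They held 31220601 and 33498788 UMIs, with medians of 2293.5 and 1692 per cell. Suffixes of the sorted sample shared 10 to 19 cell barcodes per pair, those of the total sample 0 to 9, and pairs across samples 0 or 1. Cells were clustered jointly and named from marker genes, and the suffix "-like" marks such a rebuilt name. Classes with at least 50 cells gave 12 units in the sorted and 9 in the total sample, and the markers of every named class were detected in it. Unnamed cluster 23 (133 sorted cells) was led by the granulocyte genes Prss34, Mcpt8, Mpo and Ctsg. Its top 10 genes also held the neuroblast markers Sox11 and Igfbpl1, with Tubb2b and Top2a. The cluster raised 100% of the neuroblast and 62% of the mast cell or basophil markers, and was not counted as an immune class. Unnamed cluster 18 (229 total cells) raised mural, endothelial and fibroblast markers together. Levels are given in CPM, the UMIs of a gene among 1000000 UMIs summed over a class. A class of the sorted sample is called sorted and one of the total sample total-brain. Ranges in brackets are exact 95% Poisson intervals, and exact binomial ones for ratios. They cover counting error only, and with 1 sample per group no p-value was computed. The STING gene itself, Tmem173, was highest in microglia-like cells, at 159 CPM (sorted) and 127 CPM (total-brain). These levels are pooled over the suffixes and so do not check the genotypes, and Tmem173 by suffix is not given here. The samples differ in sort, age and sex together and in the Cell Ranger version of their file headers, and the 10x chemistry of each is uncertain. These cannot be told apart as sources of any difference between the samples.

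**Figure D1:**
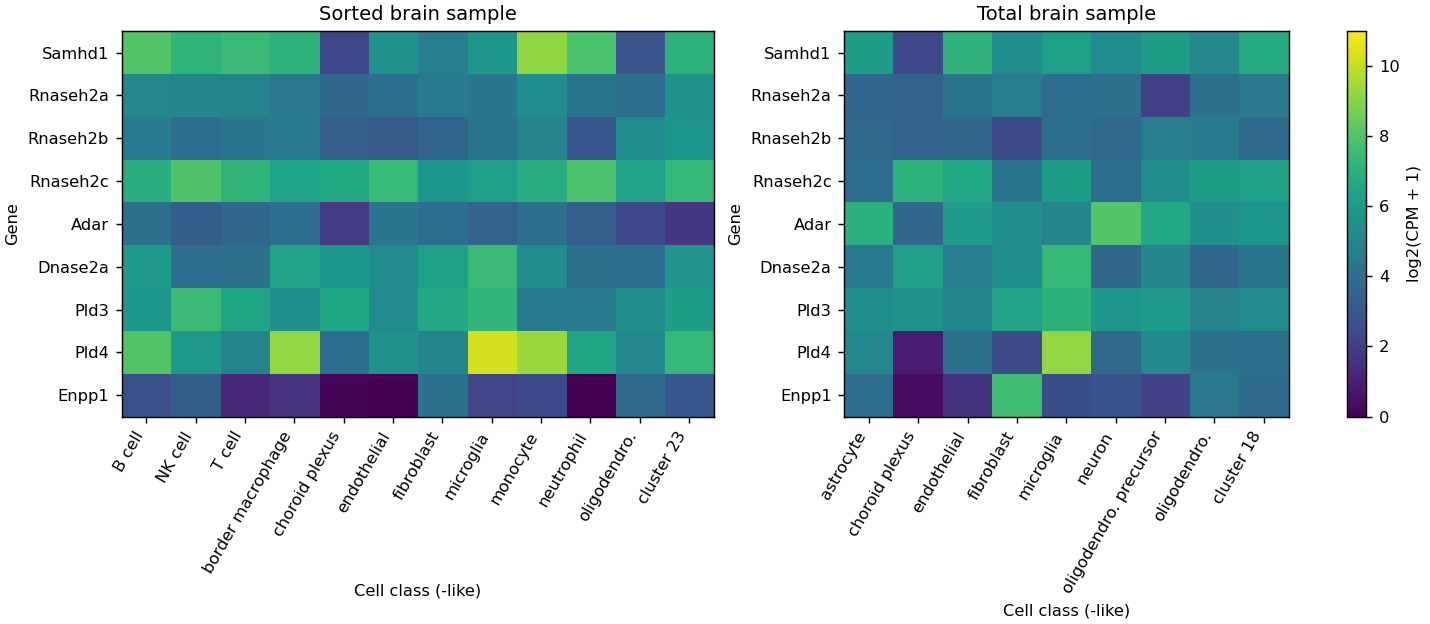
Levels of 9 of the 10 genes (rows) in each cell class with at least 50 cells (columns), as log2(CPM + 1) by colour, in the sorted sample (left) and the total sample (right). Trex1, at 0 in both samples, is not drawn. Pld4 is brightest in microglia-like cells of both samples, Samhd1 in sorted monocyte-like cells, Adar in neuron-like and Enpp1 in total-brain fibroblast-like cells.

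Among the 9 genes with counts, 5 had their highest level in an immune class of the sorted sample: Samhd1, Rnaseh2c, Dnase2a, Pld3 and Pld4. Of all 15707 genes with at least 10 UMIs there, 38% were highest in an immune class. Of the 9 genes in total brain, 3 genes, Dnase2a, Pld3 and Pld4, were highest in microglia-like cells, against 10.2% of 18122 genes. Adar alone of the 9 was highest in neuron-like cells, where 23% of genes had their highest level.

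Samhd1 (chromosome 2, 157097533 to 157135265, minus strand, GRCm38) was highest in blood-derived immune cells and lowest in the choroid plexus epithelium, which secretes cerebrospinal fluid. In sorted monocyte-like cells it stood at 575 CPM [518–636], and the 4 suffixes gave 593, 672, 397 and 725 CPM. In microglia-like cells, the resident macrophages of brain tissue, it stood at 54.8 CPM [50.2–59.8], with 53.8, 60.5, 50.5 and 43.8 CPM in the suffixes. Every suffix of the monocyte-like cells lay above every suffix of the microglia-like cells, and the log2 ratio of the pooled levels was 3.37 [3.17–3.56], with 1 CPM added to both. B cell-like cells (254 CPM [229–282]) and neutrophil-like cells (234 CPM [191–283]) followed the monocyte-like cells and did not differ from each other beyond their intervals. T cell-like cells stood at 179 CPM, NK cell-like cells at 145 CPM and border macrophage-like cells, the macrophages of meninges and vessels, at 137 CPM. Thus all 6 other immune classes lay above the microglia-like cells by intervals that did not overlap. Choroid plexus epithelial-like cells were last in both samples, at 4.19 CPM [3.16–5.46] (sorted) and 4.32 CPM [2.42–7.13] (total-brain). Sorted oligodendrocyte-like cells, at 6.47 CPM from 3 UMIs, were next and did not differ from them beyond the intervals.

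A UMI of Samhd1 was found in 72.2% [65.5–78.2] of monocyte-like and 10.6% [9.67–11.5] of microglia-like cells. After each cell was thinned to 1000 UMIs the shares were 46.0% and 5.39%. In choroid plexus epithelial-like cells, the class of lowest level, the share was 2.09% before and 0.649% after thinning. Their median depth was 4184.5 UMIs, against 2585 in monocyte-like and 2029 in microglia-like cells. Among these classes the order of the shares was that of the levels at both depths. Over all sorted classes it was not. Before thinning, neutrophil-like cells had a share of 44.8% against 36.7% in B cell-like cells, whose level was higher. Their median depths were 2641 and 1526 UMIs, and after thinning the shares were 24.4% and 24.1%, with intervals that overlapped. Oligodendrocyte-like cells had 1.97% before thinning, below the choroid plexus epithelial-like cells. After thinning they had 0.676%, just above the 0.649% of those cells, which is the order of the levels.

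The total sample had too few monocyte-like and lymphocyte-like cells for a level, and there Samhd1 was highest in endothelial-like cells, which line the vessels. Their level was 143 CPM [134–152], and the suffixes gave 86.2, 93.2, 149 and 165 CPM. Unnamed cluster 18, which shares endothelial markers, came next at 109.5 CPM [95.1–125], and the ranges over suffixes of the 2 overlapped. Microglia-like cells of this sample stood at 73.9 CPM [64.8–84.0], astrocyte-like cells at 69.0 CPM, neuron-like cells at 40.1 CPM and oligodendrocyte-like cells at 35.1 CPM. The 124 sorted endothelial-like cells held 13 UMIs of Samhd1, or 49.6 CPM [26.4–84.9], and the ratio of total over sorted was 2.88 [1.67–5.42]. The 8 choroid plexus epithelial markers, of the class lowest in Samhd1, summed to 84147 CPM in these sorted cells and to 314 CPM in the total-brain ones, and their part in the ratio was not tested.

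Trex1 (chromosome 9, 109057933 to 109059734, minus strand) had 0 UMIs in every barcode of both samples. With 3 counts as the floor, that allows up to 0.0961 CPM over all sorted and 0.0896 CPM over all total-brain cells kept. In GENCODE M21 all 1147 exonic bases of Trex1, 100%, lie in exons of Atrip on the same strand, a gene for a partner of the DNA damage kinase ATR. Atrip had 242 and 859 UMIs over all barcodes of the sorted and total sample, and the labels do not say how reads shared by both genes were counted. Trex1 is therefore listed at 0 here, which does not show that its transcripts were absent. Atrip itself was at 36.6 CPM in neuron-like and 9.98 CPM in total-brain microglia-like cells.

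The RNase H2 genes did not share 1 pattern. Rnaseh2c (chromosome 19, 5601873 to 5607019, plus strand), which encodes a structural subunit, was highest in sorted NK cell-like cells at 239 CPM [191–296]. Neutrophil-like cells were at 234 CPM [191–283] and endothelial-like cells at 168 CPM [122–226], so these 3 classes did not differ beyond their intervals. Microglia-like cells stood near the low end at 73.1 CPM [67.7–78.8], with 76.2, 68.8, 78.5 and 70.8 CPM in the suffixes, and fibroblast-like cells were lowest at 54.0 CPM [42.8–67.3]. Total-brain choroid plexus epithelial-like cells led with 139 CPM [127–152], where the suffixes gave 154, 136, 143 and 123 CPM. Endothelial-like cells followed at 97.0 CPM [89.4–105]. Neuron-like cells, at 14.7 CPM [12.6–17.2], and astrocyte-like cells, at 14.3 CPM [9.96–19.9], were lowest and overlapped each other. The choroid plexus level of Rnaseh2c was 1.39-fold [1.25–1.54] higher in the total than in the sorted sample (100.3 CPM), under the 2-fold limit used for calls. The 8 choroid plexus epithelial markers summed to 400805 CPM in sorted and 252941 CPM in total-brain choroid plexus epithelial-like cells. The highest single marker stood at 397674 and 249151 CPM. Levels in CPM are shares of the same UMI total, so a larger marker share leaves less for all other genes. The part of this in the choroid plexus levels and ratios given here was not tested. Of the 1715 exonic bases of Rnaseh2c, 426 (24.8%) lie opposite exons of Kat5, and the labels do not say whether counting used strand.

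Rnaseh2a (chromosome 8, 84956610 to 84969767, minus strand), the catalytic subunit, was highest in the sorted unnamed cluster 23 at 50.8 CPM [31.8–76.9]. Rnaseh2b (chromosome 14, 62292589 to 62372992, plus strand), the subunit that binds PCNA at replication sites, was highest in the same cluster at 55.4 CPM [35.5–82.4]. These levels rest on 22 and 24 UMIs. Monocyte-like cells came second for Rnaseh2a at 39.9 CPM [26.0–58.4], and oligodendrocyte-like cells second for Rnaseh2b at 41.0 CPM [24.7–64.0]. Neither neighbour differed from cluster 23 beyond the intervals. Rnaseh2b also stood at 23.1 CPM [17.7–29.8] in total-brain oligodendrocyte-like cells, close behind 24.1 CPM [9.70–49.7] in their precursors, while neuron-like cells had 12.4 CPM [10.4–14.6]. Microglia-like cells held 18.8 CPM of Rnaseh2a in the sorted and 14.7 CPM in the total sample, and 17.6 and 14.7 CPM of Rnaseh2b. For both genes the ratio of total over sorted had an interval that included 1 in these cells, at 0.779 [0.552–1.08] for Rnaseh2a and 0.831 [0.588–1.16] for Rnaseh2b. Of the 3509 exonic bases of Rnaseh2a, 339 (9.66%) lie in exons of Gm49661 on the same strand and 177 (5.04%) opposite exons of Prdx2. Prdx2 was at 441 CPM in cluster 23. It was at 522 CPM in sorted choroid plexus epithelial-like cells, where Rnaseh2a was lowest at 11.7 CPM. The part of either gene in the Rnaseh2a counts was not tested.

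Of the lysosomal nucleases, Dnase2a and Pld4 were highest in microglia-like cells of both samples, and Pld3 in those of the total sample only. In the total sample 10.2% of all genes were highest in these cells, and for the sorted sample that share was not counted. Dnase2a (chromosome 8, 84908560 to 84922915, plus strand), the acid endonuclease that digests engulfed DNA, stood at 178 CPM [169–187] in sorted microglia-like cells. Its suffixes gave 189.7, 168, 173 and 171 CPM. The total-brain level was 164 CPM [151–179], with 143, 141, 184 and 176 CPM in the suffixes. The suffix ranges of the 2 samples overlapped, and the ratio of total over sorted was 0.925 [0.837–1.02]. Border macrophage-like cells were next in the sorted sample at 85.4 CPM [70.6–102], followed by fibroblast-like cells at 74.3 CPM [61.1–89.6]. Choroid plexus epithelial-like cells held 54.2 CPM [50.3–58.3] in the sorted and 72.1 CPM [63.4–81.6] in the total sample, where they ranked second. T cell-like, NK cell-like, neutrophil-like and sorted oligodendrocyte-like cells lay between 14.2 and 15.9 CPM.

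UMIs of the 9 microglia markers were also counted in other classes, and their levels are given beside those of Dnase2a. In sorted choroid plexus epithelial-like cells these markers stood at 1.02% to 1.38% of their microglia-like levels, and in the total sample at 0% to 0.423%, with Sall1 at 0 there. Dnase2a in the same cells stood at 30.5% and 43.8% of its microglia-like level, far above every marker. Within total-brain neuron-like cells, the cluster led by Gabra6, a marker of cerebellar granule neurons, held 51.0 CPM of Dnase2a, or 31.0% of the microglia-like level against 2.75% to 5.76% for the markers. The other 6 neuron-like clusters held 0 to 25.0 CPM. A share of 29.99% of the exonic bases of Dnase2a lies opposite exons of the kinase gene Mast1, which was at 164 CPM in the Gabra6 cluster. Mast1 was at 285 CPM in the cluster led by Abhd12b, Ntng1 and Pcp2, where Dnase2a had 0 UMIs. The part of Mast1 reads in the Dnase2a counts was not tested.

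Pld3 and Pld4 are relatives that encode single-strand exonucleases of the endolysosome, and their patterns differed in breadth. Pld3 (chromosome 7, 27532000 to 27553218, minus strand) was found in every class, from 21.5 CPM [11.7–36.0] in monocyte-like to 179.5 CPM [138–229.7] in sorted NK cell-like cells. Microglia-like cells were second at 154 CPM [146–162], with suffixes at 157, 156, 143 and 147 CPM, and their interval overlapped that of the NK cell-like cells. Fibroblast-like (99.97 CPM), choroid plexus epithelial-like (90.8 CPM) and T cell-like cells (90.6 CPM) followed. Total-brain microglia-like cells led at 131 CPM [119–145], but their suffixes gave 191, 181, 92.5 and 92.8 CPM, a wider spread than in the sorted sample. Neuron-like cells of that sample were at 57.3 CPM [53.0–61.9]. In choroid plexus epithelial-like cells Pld3 stood at 90.8 CPM in the sorted and 48.7 CPM in the total sample, a ratio of 0.537 [0.454–0.631]. These cells were mainly of cluster 3 in the sorted (60.2%) and of cluster 5 in the total sample (73.9%), and within cluster 5 the levels were 101 and 47.7 CPM, a ratio of 0.472 [0.395–0.561] that passes the 2-fold limit. Over the whole class the suffixes gave 112, 86.7, 76.1 and 76.2 CPM against 38.6, 55.2, 49.4 and 50.5 CPM and did not overlap.

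Pld4 (chromosome 12, 112760655 to 112768990, plus strand) was highest in microglia-like cells of both samples, followed in the sorted sample by monocyte-like and border macrophage-like cells. In sorted microglia-like cells its level was 1201 CPM [1179–1223], and the suffixes gave 1189, 1219, 1263 and 1113 CPM. Monocyte-like cells held 647 CPM [587–712] and border macrophage-like cells 599 CPM [559–641], 2 classes whose ranges overlapped. B cell-like cells held 257 CPM [232–285] and neutrophil-like cells 86.2 CPM [61.0–118]. The markers of microglia were lower in these 3 classes than Pld4 was, relative to microglia-like cells: 2.56% to 17.6% against 53.9% in monocyte-like, 6.52% to 25.5% against 49.9% in border macrophage-like, and 6.46% to 10.8% against 21.4% in B cell-like cells. In all other classes of both samples Pld4 lay inside the range of the markers or below it. In sorted choroid plexus epithelial-like cells it stood at 14.9 CPM, which is 1.24% of its microglia-like level. A UMI of Pld4 was found in 85.6% [84.5–86.6] of microglia-like and 5.75% of sorted choroid plexus epithelial-like cells, and the first share was 68.8% after thinning to 1000 UMIs.

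Total-brain microglia-like cells held 598 CPM of Pld4 [571–625], with 436, 552, 664 and 690 CPM in the suffixes, and no other class exceeded 37.9 CPM. Over all other kept cells the log2 ratio was 5.03 [4.89–5.17] there and 3.62 [3.55–3.69] in the sorted sample, where the 3 other classes rich in Pld4 were part of the rest. Total-brain microglia-like cells thus had 0.498 times [0.474–0.523] the sorted level, and every suffix of the total sample lay below every suffix of the sorted one. This ratio sits at the 2-fold limit, with a log2 ratio of −1.005. It no longer passed without sorted suffix 2 (−0.992) or 3 (−0.995) or total suffix 1 (−0.887) or 2 (−0.982). The summed level of the 9 microglia markers was also lower in the total sample, at 23766 against 34807 CPM. Single markers had ratios of 0.427 (Tmem119) to 2.02 (Sall1), with a median of 0.834, and 2 of 9 fell below 0.5.

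The microglia-like cells of the samples came from different clusters. Joint cluster 15 held 75.9% of those of the total sample, while clusters 1, 2 and 7 held those of the sorted sample. Within cluster 1, which held cells of both, Pld4 stood at 1231 CPM in the sorted and 463 CPM in the total sample, a ratio of 0.376 [0.314–0.446]. Dnase2a in that cluster stood at 182 and 93.2 CPM, a ratio of 0.512 [0.335–0.751] that the whole class did not show, and it rests on 27 UMIs in the total sample. When the total sample was clustered alone, 576 of its 577 microglia-like cells fell in 3 clusters that got no name. The one with most of them, 316 of its 347 cells, was led by S100a8, S100a9 and Camp, raised 100% of the microglia and neutrophil markers and 86% of the border macrophage markers, and held 576 CPM of Pld4 [549–604]. Another, with 125 of these among its 186 cells, raised 100% of the border macrophage markers, was led by Spp1, Cst7 and Tyrobp, and held 354 CPM [302–413]. The third, with 135 among 191, held 633 CPM [557–717]. Summed over the microglia-like class, the 7 border macrophage markers were at 34.0 CPM in the total sample, with Cd163, Lyve1, F13a1 and Cbr2 at 0, and at 9.62 CPM in the sorted sample. Their suffixes spanned 16.6 to 61.1 and 8.41 to 15.9 CPM, and the part of such cells in the Pld4 difference was not tested. Over the same class the 8 neutrophil markers summed to 254 CPM in the total sample, with Retnlg, Ngp, Ltf and Mmp8 at 0. In the sorted sample they summed to 379 CPM, and the suffixes spanned 178 to 299 CPM (total) and 289 to 659 CPM (sorted).

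**Figure D2:**
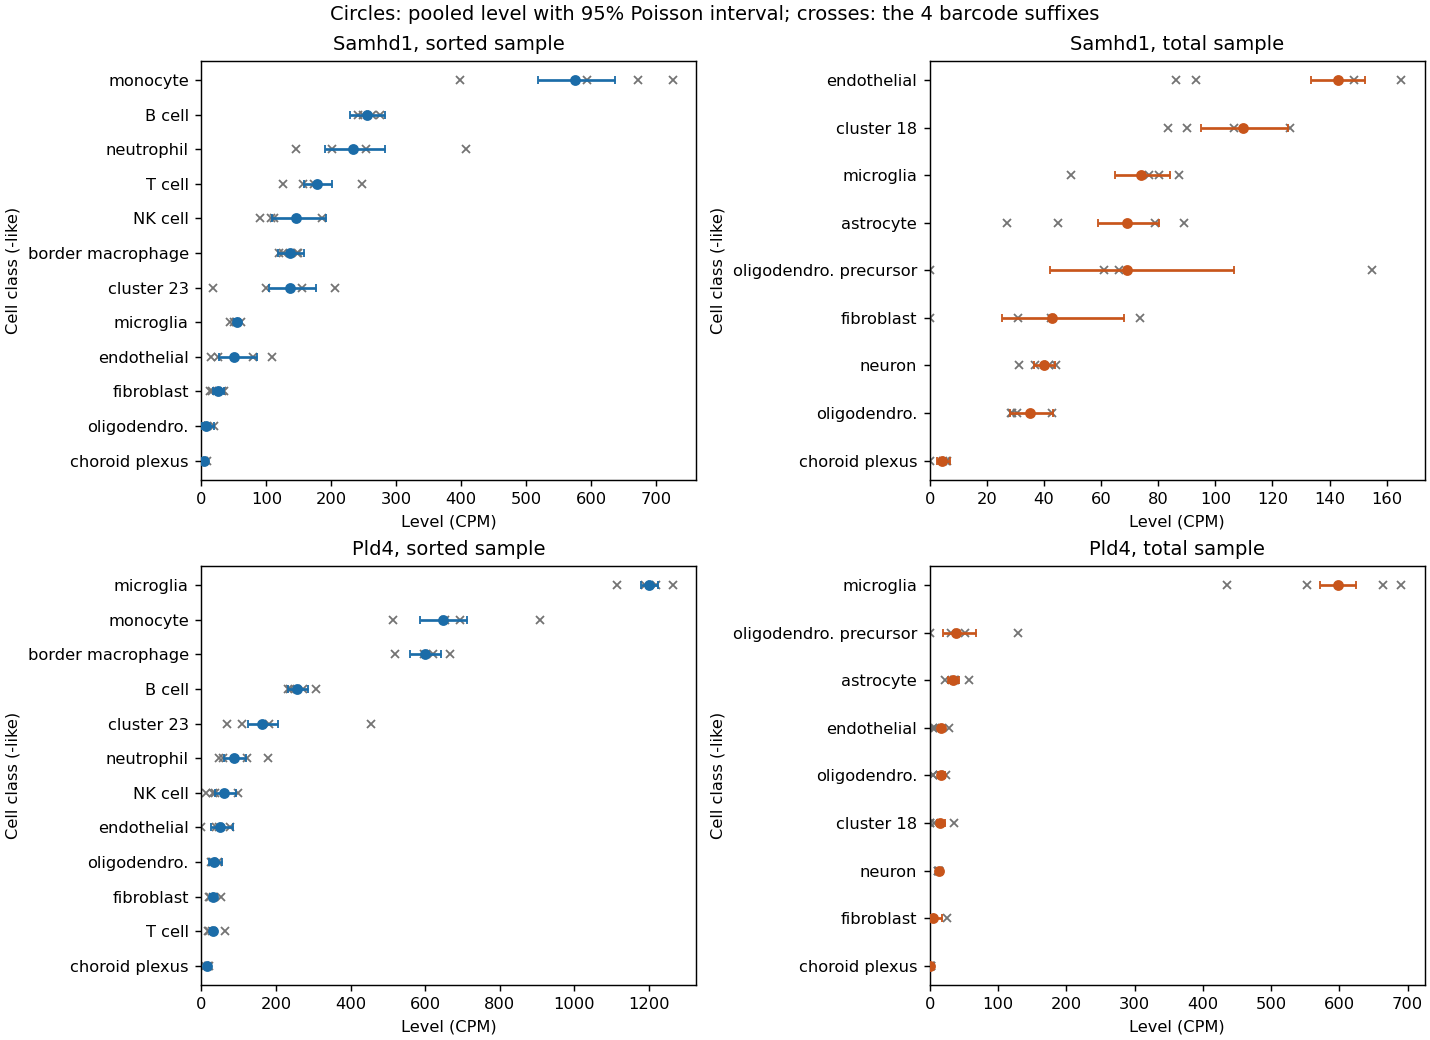
Levels of Samhd1 (top) and Pld4 (bottom) in CPM by cell class in the sorted (left) and total (right) samples, with classes ordered by level. Circles are pooled levels with 95% Poisson intervals and crosses are the 4 suffixes, including those with under 50 cells. Samhd1 peaks at 575 CPM in monocyte-like cells and Pld4 at 1201 CPM in sorted microglia-like cells.

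**Figure D3:**
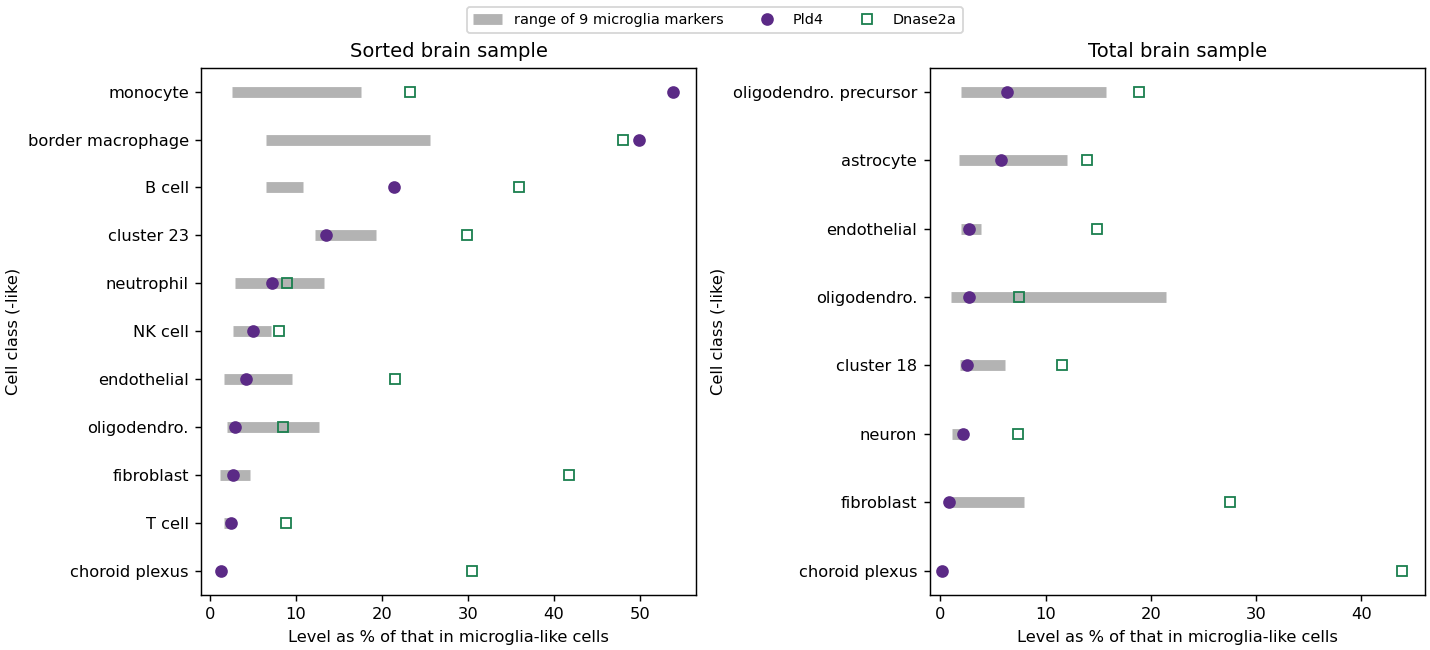
Levels of Pld4 (filled circles) and Dnase2a (open squares) in each class as a percentage of the microglia-like level, beside the range of the 9 microglia markers (grey bars). Pld4 lies to the right of the markers in 3 sorted classes, at 53.9% (monocyte-like), 21.4% (B cell-like) and 49.9% (border macrophage-like), and in no class of the total sample. Dnase2a lies to the right of the markers in most classes.

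Promoter sequence is shown for Pld3 and Pld4 because Pld4 stood far higher in a few immune classes than elsewhere, while Pld3 was broader. The 250 bases before the transcription start come from RefSeq (GRCm38.p6), at chr7:27553219-27553468 on the minus strand for Pld3 and chr12:112760405-112760654 on the plus strand for Pld4. Both strands were searched for GAGGAA, the core bound by the myeloid factor PU.1, for GAAANNGAAA, the element bound by interferon regulatory factors, and for TATAAA. Capitals mark a match, and the first 2 motifs share the letters GAA.
Pld3: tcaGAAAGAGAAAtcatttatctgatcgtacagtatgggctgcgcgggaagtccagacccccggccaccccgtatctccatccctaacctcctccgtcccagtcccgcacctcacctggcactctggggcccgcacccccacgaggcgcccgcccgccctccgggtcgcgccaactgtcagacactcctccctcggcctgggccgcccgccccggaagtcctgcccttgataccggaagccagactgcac
Pld4: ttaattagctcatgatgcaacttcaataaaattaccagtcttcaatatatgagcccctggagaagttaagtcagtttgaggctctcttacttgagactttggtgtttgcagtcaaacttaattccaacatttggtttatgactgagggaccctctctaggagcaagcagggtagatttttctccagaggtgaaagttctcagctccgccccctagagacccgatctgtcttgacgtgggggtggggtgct
The window of Pld3 held 20 CpG dinucleotides at 66.4% GC, and that of Pld4 held 3 at 45.2% GC, against medians of 6 CpG and 52.4% GC over 32536 promoters of the same length. Pld3 held 1 GAAANNGAAA match, 247 bases before the start, a motif found in 2.98% of all these promoters. The window of Pld4 held none of the motifs, and GAGGAA occurs in 23.4% and TATAAA in 12.3% of all promoters. Of the 10 genes, 9 had a promoter entry, and the one without was Rnaseh2b. GAGGAA occurred in the windows of Rnaseh2a, Rnaseh2c and 2 of the 3 starts of Adar, and no window held TATAAA. A match is only a run of letters, and binding was not measured.

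Adar (chromosome 3, 89715022 to 89753446, plus strand) was the one member highest in neuron-like cells. In total-brain neuron-like cells it stood at 261 CPM [252–271], with 204, 257, 254 and 282 CPM in the suffixes. Astrocyte-like cells followed at 129.9 CPM [116–145], where the suffixes gave 162, 125, 137 and 113 CPM, below all of those in neuron-like cells. Oligodendrocyte precursor-like cells had 93.0 CPM [61.3–135], endothelial-like cells 65.4 CPM [59.3–72.1] and microglia-like cells 31.5 CPM [25.7–38.3]. Choroid plexus epithelial-like cells were lowest at 11.5 CPM [8.24–15.7]. The 7 clusters of neuron-like cells ranged from 150.0 to 364 CPM, the highest being the one led by Abhd12b, Ntng1 and Pcp2, a gene of Purkinje cells. Adarb1, which encodes a second RNA editing deaminase, was also highest in neuron-like cells, at 218 CPM [209–227].

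In the sorted sample Adar lay between 2.31 and 19.1 CPM in every class, and those 2 ends rest on 1 and 5 UMIs. Microglia-like cells held 9.84 CPM [7.93–12.1], with 11.1, 9.17, 5.61 and 12.0 CPM in the suffixes, and choroid plexus epithelial-like cells held 2.82 CPM [1.99–3.89]. With the classes ordered by level, no neighbours differed beyond their counting intervals. Classes further apart in that order could differ, and the interval of choroid plexus epithelial-like cells lay wholly below that of microglia-like cells. The lowest suffix of microglia-like cells in the total sample (18.2 CPM, the others being 36.6, 32.2 and 38.8) lay above the highest of the sorted sample. The ratio of total over sorted was 3.20 [2.39–4.297] in microglia-like, 4.09 [2.55–6.57] in choroid plexus epithelial-like, 3.43 [1.46–10.6] in endothelial-like, 2.89 [1.46–5.64] in fibroblast-like and 10.47 [2.83–87.4] in oligodendrocyte-like cells. The last ratio rests on 2 sorted UMIs, and the cells behind it were mainly of cluster 17 in the sorted (98.7%) and of cluster 12 in the total sample (81.6%). Within cluster 17 Adar had 0 UMIs in 150 sorted cells, which allows up to 6.72 CPM, and 18.9 CPM in 118 total cells.

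Adar was thus at least 2-fold higher in the total sample in all 5 classes compared, as were 11.1% of the 9266 genes that could be counted in all 5, a rule chosen after the values were seen. Neuron markers were also higher there. The 7 neuron markers summed to 648 CPM in its microglia-like cells (suffixes 302 to 917) and to 25.3 CPM in those of the sorted sample (18.7 to 30.9), with none at 0 in either. Their sums were 2860 against 51.7 CPM in oligodendrocyte-like, 2800 against 257 CPM in fibroblast-like, 833 against 15.3 CPM in endothelial-like and 328 against 17.4 CPM in choroid plexus epithelial-like cells. In the sorted sample Syt1 and Rbfox3 were at 0 in the first 3 of these, with Snap25 in fibroblast-like and with Snap25, Celf4 and Snhg11 in endothelial-like cells. In total-brain microglia-like cells single neuron markers stood at 1.17% to 11.5% of their neuron-like level and Adar at 12.1%. In endothelial-like cells they stood at 1.55% to 12.4% and Adar at 25.0%, in choroid plexus epithelial-like cells at 0.695% to 2.36% and Adar at 4.41%, and in astrocyte-like cells at 25.3% to 65.6% and Adar at 49.7%. In oligodendrocyte-like cells they stood at 6.20% to 17.2% and Adar at 17.3%, and in fibroblast-like cells at 3.69% to 15.1% and Adar at 16.4%. In cluster 1 alone, microglia-like cells had 8.55 CPM of Adar in the sorted and 10.4 CPM in the total sample, the latter from 3 UMIs, a ratio of 1.21 [0.238–3.86]. In cluster 5, choroid plexus epithelial-like cells had 2.38 and 8.51 CPM, a ratio of 3.58 [1.91–6.87]. The part of neuronal RNA in these ratios was not tested. Opposite 1365 (16.8%) of the 8118 exonic bases of Adar lie exons of Chrnb2, a nicotinic receptor gene, which was at 27.7 to 75.9 CPM in the neuron-like clusters. Its highest level was in the cluster led by Abhd12b, Ntng1 and Pcp2, also the highest in Adar at 364 CPM. The Gabra6 cluster held 52.8 CPM of Chrnb2 and 194 CPM of Adar, and the cluster led by Camk2a 27.7 and 258 CPM. The part of Chrnb2 reads in the Adar counts was not tested.

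**Figure D4:**
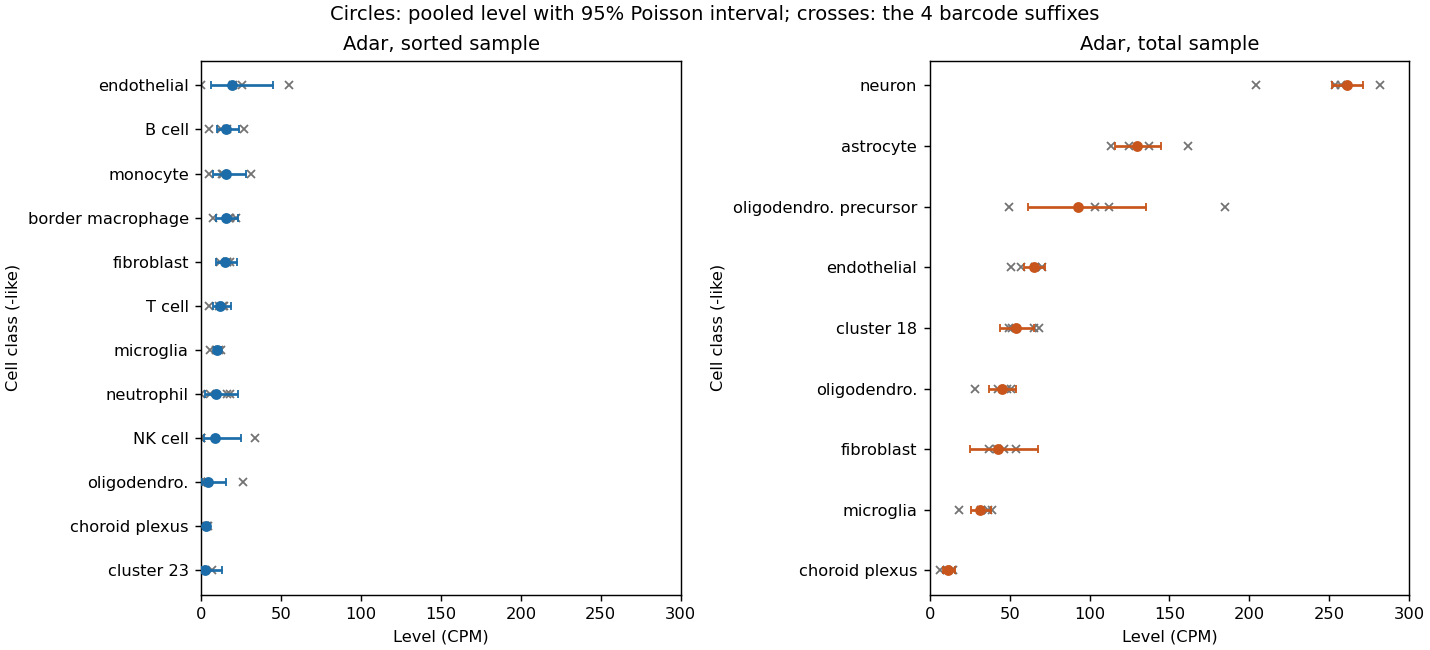
Level of Adar in CPM by cell class in the sorted (left) and total (right) samples, on the same axis, with classes ordered by level. Circles are pooled levels with 95% Poisson intervals and crosses are the 4 suffixes, including those with under 50 cells. Levels reach 261 CPM in total-brain neuron-like cells and at most 19.1 CPM in any class of the sorted sample.

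Enpp1 (chromosome 10, 24637914 to 24712159, minus strand), the ectoenzyme that hydrolyses cGAMP and ATP, was highest in fibroblast-like cells of both samples. In the total sample they held 188 CPM [149–235], and the suffixes, of which only suffix 3 had 50 cells, gave 271, 46.2, 212 and 197 CPM. The next class, oligodendrocyte-like cells, held 20.4 CPM [15.3–26.7]. In the sorted sample fibroblast-like cells held 16.9 CPM [10.9–24.9] and oligodendrocyte-like cells 12.9 CPM [4.75–28.2], which overlapped. The ratio of total over sorted in fibroblast-like cells was 11.2 [7.04–18.3], but the class was made of different cells. Of those in the total sample 63.2% were in cluster 26, led by Dcn and Slc6a13, genes of meningeal fibroblasts, and this cluster alone held 378 CPM [296–475]. In the sorted sample 97.0% were in cluster 16, led by Mgp, Nov and Igfbp6, which held 15.3 CPM [9.57–23.1]. With a looser filter on cells the level in total-brain fibroblast-like cells was 68.8 CPM, and in the sorted sample mural-like cells were then highest.

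Among neuron-like clusters of the total sample, the one led by Kit and Trim67 held 65.8 CPM of Enpp1 and the other 6 held 2.35 to 10.7 CPM. Microglia-like cells held 3.96 CPM [2.79–5.45] in the sorted and 5.30 CPM [3.09–8.49] in the total sample. Choroid plexus epithelial-like cells held 2 UMIs among 2488 sorted cells and 1 UMI among 349 total cells, or 0.152 and 0.288 CPM. In sorted endothelial-like and neutrophil-like cells Enpp1 was at 0, which allows up to 11.5 and 6.80 CPM. The promoter of Enpp1 is shown because the gene, like Pld4, was far above the rest in 1 class of the total sample. It spans chr10:24712160-24712409 on the minus strand.
Enpp1: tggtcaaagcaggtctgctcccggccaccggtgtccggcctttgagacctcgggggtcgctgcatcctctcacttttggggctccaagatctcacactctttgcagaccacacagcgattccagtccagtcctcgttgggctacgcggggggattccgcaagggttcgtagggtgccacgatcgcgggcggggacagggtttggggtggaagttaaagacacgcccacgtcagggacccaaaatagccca
It held 17 CpG dinucleotides at 61.2% GC and no match to the motifs, so Pld4 and Enpp1 lay on opposite sides of the median CpG count.

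The 2 classes with many cells in both samples were microglia-like (4421 and 577 cells) and choroid plexus epithelial-like (2488 and 349 cells), and most of the genes stayed within 2-fold between the samples. In microglia-like cells 1 of 9 genes, Adar, was at least 2-fold higher in the total sample and 1, Pld4, at least 2-fold lower. Over all 12863 genes with at least 10 UMIs, 28.4% were at least 2-fold apart, 24.4% higher and 4.05% lower in the total sample. The median log2 ratio was −0.11 over the 9 genes and 0.20 over all genes. In choroid plexus epithelial-like cells 8 genes had 10 UMIs, again with Adar higher and Pld4 lower, at 14.9 against 0.865 CPM. The background there was 28.2% of 12596 genes, 25.2% higher and 2.91% lower, and the medians were 0.12 and 0.46. The choroid plexus epithelial markers held 400805 CPM of these cells in the sorted and 252941 CPM in the total sample. The part of that difference in these ratios was not tested. Samhd1 in microglia-like cells was 1.35-fold [1.15–1.58] higher in the total sample by counting error, but its suffixes overlapped.

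Smaller shared classes gave 3 genes higher (Samhd1, Adar and Enpp1) and 1 lower (Pld4) of 9 in endothelial-like cells, where 47.6% of all genes were at least 2-fold apart, 38.7% higher and 8.93% lower. For Enpp1 this rests on 0 sorted UMIs, whose limit of 11.5 CPM exceeds the 2.07 CPM of the total sample. Fibroblast-like cells had 2 higher (Adar and Enpp1) and 3 lower (Rnaseh2b, Rnaseh2c and Pld4), against 51.4% of all genes, 37.3% higher and 14.1% lower. There Rnaseh2b and Pld4 rest on 2 total UMIs each. The interval for Rnaseh2b, 0.441 [0.0492–1.88], includes 1, and its total-brain level of 4.77 CPM was 0 without suffix 3. That of Pld4, also 4.77 CPM, was 0 without suffix 4 and 10.9 CPM without suffix 3. Oligodendrocyte-like cells had 2 higher (Samhd1 and Adar) and 1 lower (Pld4), against 48.2%, 42.2% higher and 5.94% lower. The ratio for Samhd1 was 5.43 [1.80–26.8] from 3 sorted UMIs, and within cluster 17 it was 2.65 [0.828–13.5], at 6.72 and 17.8 CPM. Pld4 was at least 2-fold lower in the total sample in all 5 classes, as were 0.27% of the 9266 genes counted in all of them, a rule also chosen after the values were seen. Beside it, the 9 microglia markers summed to 428 CPM in sorted and 59.1 CPM in total-brain choroid plexus epithelial-like cells. In fibroblast-like cells they summed to 938 and 324 CPM, in endothelial-like cells to 1127 and 648 CPM and in oligodendrocyte-like cells to 938 and 464 CPM. The part of this RNA in the Pld4 levels of these 4 classes was not tested.

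**Figure D5:**
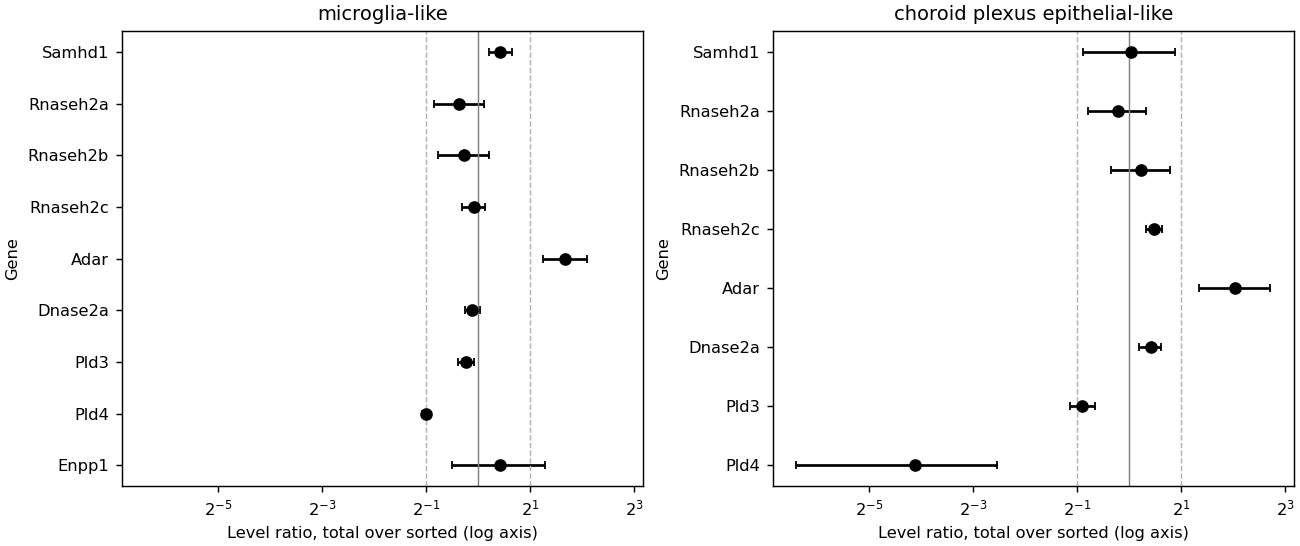
Ratio of the level in the total sample over that in the sorted sample (log axis) for each gene with at least 10 UMIs, in microglia-like (left) and choroid plexus epithelial-like cells (right). Points are ratios with 95% binomial intervals, the solid line marks 1 and dashed lines mark 2-fold either way. Adar lies to the right of 2-fold in both panels at 3.20 and 4.09, and Pld4 lies at 0.498 on the left and 0.0579 on the right.

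Other genes of these pathways were counted in 7 lists. Of the 11 DNA sensing genes all 11 were highest in an immune class of the sorted sample, against the 38% of all genes given above, and 6 of the 10 with 10 UMIs were highest in total-brain microglia-like cells, against 10.2%. They were led by Unc93b1, which carries Toll-like receptors to the endosome, at 1445 CPM [1421–1469] in microglia-like cells, and by the DNA-binding gene Ifi204 at 198 CPM [165–235] in monocyte-like cells. Of the 11 other DNases, 6 had 10 UMIs in the sorted sample and 4 of these were highest in an immune class (2 of 6 in total-brain microglia-like cells). The base excision repair gene Apex1 (94.6 CPM [67.9–128]) and the flap endonuclease gene Fen1 (64.6 CPM [43.0–93.4]) were highest in cluster 23, where Rnaseh2a and Rnaseh2b were. Of the 8 genes of deoxynucleotide supply, which SAMHD1 opposes, 4 were highest in an immune class (3 of 5 in total-brain microglia-like cells). The ribonucleotide reductase gene Rrm2 stood at 185 CPM [146–229.9] in cluster 23, and the mitochondrial kinase gene Dguok at 114 CPM [81.4–155] in NK cell-like cells.

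Among 9 genes of cyclic dinucleotide hydrolysis and transport, 7 had 10 UMIs in the sorted sample and 3 were highest in an immune class (2 of 8 in total-brain microglia-like cells). Smpdl3a, a phosphodiesterase that also cleaves cGAMP, stood at 791 CPM [724–863] in monocyte-like cells, the class with the most Samhd1, and the ectonucleotidase gene Entpd1 at 342 CPM [322–363] in total-brain microglia-like cells. Of 12 genes of RNA sensing and RNA brakes, 8 were highest in an immune class (4 of 12 in total-brain microglia-like cells), led by the lysosomal ribonuclease gene Rnaset2a at 549 CPM [534–564] in microglia-like cells. Of 8 other brakes, 5 of the 7 with 10 UMIs were highest in an immune class (2 of 6 in total-brain microglia-like cells), led by the phosphatase gene Ptpn6 at 512 CPM [475–550.1] in B cell-like cells. Socs3, which restrains cytokine signalling, stood at 461 CPM [438–486] in total-brain microglia-like cells. Of 4 other phospholipase D genes, 1 of the 2 with 10 UMIs was highest in an immune class: Pld1, at 248 CPM [238–258] in microglia-like cells, while Pld2 reached 123 CPM [109.5–138] in total-brain astrocyte-like cells. Between the samples, 0 or 1 gene of each list was at least 2-fold higher and 0 or 1 lower in microglia-like cells, of 3 to 12 tested, where 24.4% of all genes were higher and 4.05% lower. The median log2 ratios of the lists ran from −0.20 (deoxynucleotide supply) to 0.57 (RNA sensing and RNA brakes).

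The genes whose levels most resembled each member were ranked by Pearson r of log2(CPM + 10) over the 21 class-by-sample units, among 9689 genes. The units share libraries and depths, so r is a description. Pld4 was followed most closely by Ly86 (0.973), Cd68 (0.970) and Aif1 (0.968), genes of macrophages. Adar was followed by Tbkbp1 (0.968), Syt7 (0.961) and Vsnl1 (0.961), and Dnase2a by Pon3 (0.915), Renbp (0.900) and Dhrs3 (0.883). For Enpp1 the nearest were Fam180a (0.896), Slc22a6 (0.888) and Aox3 (0.887), and for Samhd1 Stk17b (0.860), Baz1a (0.852) and Pim1 (0.850). The nearest genes were Vps28 (0.874), Mrps18c (0.866) and Magoh (0.861) for Rnaseh2c, and Uchl5 (0.857), Llph (0.848) and Psma1 (0.844) for Rnaseh2a. For Rnaseh2b they were Snhg6 (0.820), Mrpl19 (0.766) and Fen1 (0.752). Pld3 had the weakest match, with Galnt12 at 0.751, Mmgt2 at 0.742 and Man2b2 at 0.716.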

How the data were processed

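The deposited matrices hold raw UMI counts, made by the authors with Cell Ranger (3.0.2 in the submitters' processing notes, 3.0.2 for the sorted and 3.1.0 for the total sample per the file headers) on mm10. The sample labels name 10x v3 for both samples while the labels' protocol names v2 and v3 depending on the run, so the chemistry of each sample is uncertain, with no annotation release or strand setting given in the sources used here. Members and lists were chosen with earlier results of these data known. The genes named were all 10 members, the 2 of each pathway list with the highest level, and the 3 nearest in pattern to each member. Kept cells of both samples were clustered together (Leiden, resolution 1, 2000 variable genes, 30 components, 15 neighbours, no integration) with scanpy 1.11.5. A cluster was named when at least 50% and 3 of a class's markers (21 lists) were raised 2-fold with 10 CPM added, unless another class reached 80% or led its top 10 genes. Counts were summed per class. Log2 ratios and their intervals add 1 CPM to both levels, and calls need 10 UMIs and 2-fold. Scrublet called 85 sorted cells (0.844%) and 7 total cells (0.0747%) as doublets, and calls were not removed. Whether it worked in the total sample, with so few calls, was not tested. Positions come from GENCODE M21, which matched 31011 of 31053 gene IDs. The calculation was tested on simulated data. Alternatives were other cell filters (200 genes and 20%, 1000 genes and 5%), Leiden resolutions 0.5 and 2, each sample clustered alone, doublets removed, equal weight per suffix, each suffix left out, levels without mitochondrial and ribosomal protein genes, 10 CPM added, and no or 50 UMIs as minimum.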

Additional observations from a re-analysis of the deposited data

How the results depend on the processing

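No paired analysis was possible because each group has 1 sample. The count of genes at least 2-fold apart in microglia-like cells was 2, and fell to 1 with the looser filter, the stricter filter, mitochondrial and ribosomal protein genes left out, and 10 CPM added. In each case Pld4 dropped out, at log2 ratios of −0.99, −0.997, −0.967 and −0.994. Leaving out single suffixes gave 1 to 2. In choroid plexus epithelial-like cells the count of 2 fell to 1 with 10 CPM added, where Adar was at 0.75. The count of genes highest in an immune class of the sorted sample, 5, was 2 with the looser filter, where the clusters with most Samhd1 and with most Pld3 and Rnaseh2c got no name, and 5 to 6 with a suffix left out. With the looser filter Enpp1 and Rnaseh2a were highest in sorted mural-like cells, and Rnaseh2b in sorted oligodendrocyte-like cells. The count highest in total-brain microglia-like cells, 3, was 0 when that sample was clustered alone, since no cluster was then named microglia-like. For Pld4 over the other cells of the sorted sample the log2 ratio of 3.62 was 3.25 with the stricter filter, 3.52 with each sample clustered alone, and 3.55 to 3.72 without a suffix. In the total sample 5.03 became 4.75 with the stricter filter and 4.90 to 5.19 without a suffix. Samhd1 over microglia-like cells ranged from 3.21 to 3.54 without a suffix. Of 504 checks on 45 single levels, 35 left the counting interval and 14 moved by over 1.5 times, the cause of which was not tested. Monocyte-like cells got no name with the looser filter or at resolution 0.5, and total-brain microglia-like cells none when clustered alone, so those values could not be computed. Depth limits levels from few UMIs, whose intervals are wide.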

Other observations

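A few levels in the total sample split its suffixes into pairs, which was noticed after the values were seen. Pld3 in microglia-like cells was at 191 and 181 CPM in suffixes 1 and 2, and at 92.5 and 92.8 CPM in suffixes 3 and 4. Samhd1 in astrocyte-like cells was at 27.0 and 44.9 CPM in suffixes 1 and 2, and at 89.1 and 78.9 CPM in suffixes 3 and 4. In endothelial-like cells Samhd1 showed the same order, at 86.2 and 93.2 against 149 and 165 CPM. Other levels did not split this way: for Pld3 the 4 suffixes gave 64.5, 42.4, 63.0 and 54.4 CPM among neuron-like and 94.4, 37.1, 39.9 and 33.1 CPM among astrocyte-like cells. Suffixes 1 and 2 held 1092 and 1472 kept cells and suffixes 3 and 4 held 3644 and 3159. No label used here says what the suffixes are, and the pairs were not compared as groups.

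Samhd1 in the sorted unnamed cluster 23 ranged from 17.5 CPM in suffix 2 to 206 CPM in suffix 4, where the suffixes held 15 and 56 cells, and Pld4 in the same cluster ran the other way, at 455 and 68.8 CPM.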
